A study of Homo sapiens with 30 samples.

Results

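TET2-only regions were studied: stretches of the genome that were called with an antibody against TET2 and with none of the antibodies against CTCF, MBD3 and TET1. The members were chosen by peak calls alone, in HEK293T cells whose CTCF had not been degraded. Rows of each peak list that shared a base were joined into regions, and a TET2 region was kept as TET2-only when it shared no base with a CTCF, MBD3 or TET1 region. This left 503 of 1326 TET2 regions, or 37.9% (Wilson 95% interval 35.4% to 40.6%). The rest comprised 475 that shared a base with CTCF and 348 that shared one with MBD3 or TET1 but not with CTCF.

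TET2 is one of the TET dioxygenases, which oxidise methylated cytosine in DNA to hydroxymethylcytosine and further products, a step toward demethylation. Unlike TET1, TET2 carries no CXXC zinc finger of its own, and it is thought to reach DNA largely through partner proteins. CTCF is the zinc-finger protein that marks boundaries and loop anchors of chromatin, and MBD3 belongs to NuRD, a complex that remodels nucleosomes and deacetylates histones. A TET2-only region is therefore a place where the TET2 antibody enriched DNA without a call for these 3 other proteins.

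The samples were chromatin immunoprecipitation sequencing libraries from HEK293T, an established human embryonic kidney line, with an edited CTCF gene for auxin-inducible degradation. All cells were transfected with plasmids for ScFv-miniIAA7-mEGFP and AtAFB2-mCherry, components of the degradation system, and so the comparison cells carried them too. One set of cells was then grown for 72 h with 0.5 mM indole-3-acetic acid (IAA), the auxin, and the other without it; a label calls the latter DMSO-treated and the protocol mentions only fresh medium. Each antibody and condition had 3 samples, which the authors pooled into 1 peak list, so no value below has an error between cultures and no difference was tested across samples. Intervals cover counting error over regions only. Whether the edited cells are 1 clone is not stated.

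The lists without IAA held 42925 CTCF, 6608 MBD3, 16246 TET1 and 1326 TET2 regions, and those with IAA held 63, 50, 325 and 3022. CTCF, the protein to be degraded, thus had few calls with IAA, and so had MBD3 and TET1. Read depth is unknown for every list. Depth sets how many weak peaks are called, so "TET2-only" means not called for the other proteins at this depth, not unbound by them. All positions are in hg19 and counted from 1. Genes and bases at these positions were not analysed here.

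Most TET2-only regions were weak and narrow. Fold enrichment, the peak caller's ratio of signal to background, had a median of 4.57 (order-statistic 95% interval 4.49 to 4.73), with quartiles of 3.91 and 5.49 and a range from 2.02 to 42.98. The median −log10 q, the caller's measure of confidence, was 3.48 (3.13 to 3.57). Of the 503 regions, 145 reached a −log10 q of at least 5, or 28.8% (25.04% to 32.9%), and 111 lay under 2. Those under 2 were 22.1% (18.7% to 25.9%) of the class. The lowest value was 1.32, a q of 0.0476, and 7 regions with folds between 2.90 and 3.92 stood exactly there. Fold and −log10 q are the authors' values and are used only within 1 list.

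Compared with other TET2 regions, the class had few very low folds. Its −log10 q values were lower than with MBD3 or TET1, and overlapped those at CTCF. TET2 regions at CTCF had a median fold of 4.46 (4.30 to 4.62), whose interval overlaps that of the TET2-only regions. TET2 regions with MBD3 or TET1 but no CTCF had a median of 4.99 (4.84 to 5.13). Their median −log10 q was also higher, at 4.49 (4.08 to 5.02). At CTCF the median −log10 q was 3.64 (3.46 to 3.93), whose interval overlaps the 3.13 to 3.57 of the TET2-only class. A −log10 q under 2 was found in 18.5% (15.3% to 22.3%) of regions at CTCF and in 10.9% (8.06% to 14.6%) with MBD3 or TET1, both below the 22.1% of the TET2-only class. A value of at least 5 was reached by 33.5% (29.4% to 37.8%) and 45.7% (40.5% to 50.9%), both above its 28.8%. For both shares the interval at CTCF overlaps that of the TET2-only class, and the interval with MBD3 or TET1 does not. At the low end, 19 of the 503 TET2-only regions had a fold under 3, or 3.78% (2.43% to 5.82%). At CTCF the share under 3 was 7.79% (5.70% to 10.6%), and with MBD3 or TET1 it was 13.2% (10.1% to 17.2%). No TET2-only region had a fold under 2, a count of 0 of 503 that allows up to 0.596%, against 8 of 475 at CTCF and 30 of 348 with MBD3 or TET1. Of those 30, 15 were mitochondrial, and all 16 mitochondrial TET2 regions of that class had a fold under 3. On chromosomes 1 to 22 and X alone, a set chosen after the values were seen, the shares under 3 were 3.78% (2.44% to 5.84%) for TET2-only regions, 7.30% (5.27% to 10.02%) at CTCF and 8.26% (5.74% to 11.7%) with MBD3 or TET1. Here the TET2-only interval overlaps both others, and over all regions it overlaps only that at CTCF. The counts under 2 on these chromosomes were 0 of 502, 8 of 466 and 14 of 327 in the same order. The weakest 10% of the whole TET2 list by fold, 132 regions, held 32 TET2-only regions, or 24.2% (17.7% to 32.2%). The strongest 10% held 47, or 35.6% (28.0% to 44.1%). The class made up 37.9% of the whole list, so its share was low among the weakest and near that value among the strongest. The weakest 132 include all 102 regions with a fold under 3, and so all 16 mitochondrial regions, none of them TET2-only. This share was not taken on chromosomes 1 to 22 and X alone, so how far it rests on such regions was not tested.

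**Figure D1:**
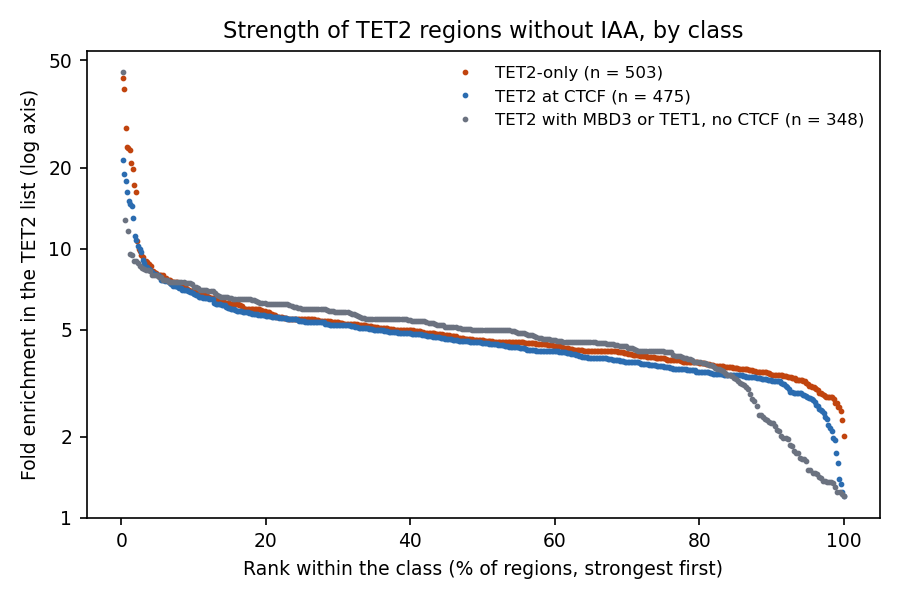
Fold enrichment of each TET2 region without IAA (vertical, log axis) against its rank within its class (horizontal, percent, strongest first), with 1 point per region. The 3 classes run together near 4.5 to 5 in the middle, 10 TET2-only regions lie from 16.2 to 42.98 at the left, where the highest point of all, 45.3, belongs to the class with MBD3 or TET1, and at the right the other classes fall below 2 while the TET2-only class stops at 2.02.

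A small strong group stood apart within the class. A fold of at least 10 was reached by 12 regions, or 2.39% (1.37% to 4.12%). At CTCF the share was nearly the same, 11 of 475 or 2.32% (1.30% to 4.10%), and with MBD3 or TET1 it was 3 of 348. The 10 strongest lay between 16.2- and 42.98-fold, the next region was at 10.7-fold, and none lay in between. Among all TET2 regions, 15 were at least as strong as the tenth of these, and of those 15 there were 10 in the TET2-only class, 4 at CTCF and 1 with TET1. That last region had the highest fold of the whole TET2 list, 45.3. This split follows a limit set after the values were seen and is given as a description. The limit is the fold of the tenth TET2-only region, so 10 regions of this class were certain to reach it. In the strongest 10% of the whole list, a limit not taken from the class, TET2-only regions made up 35.6% (28.0% to 44.1%). Their share of all TET2 regions was 37.9%.

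The highest fold belonged to a 434 bp region on chromosome 2, chr2:44588911-44589344, at 42.98-fold with a −log10 q of 385. Its nearest CTCF summit was 18911 bp away, and the nearest MBD3 and TET1 regions were 274311 and 117267 bp away. The next, 492 bp wide, was chr1:228674573-228675064 at 39.0-fold, and its −log10 q of 551 was the highest of the class. Around it, regions of CTCF, MBD3 and TET1 all began between 13551 and 13654 bp away. Both were therefore more than 10 kb from any called region of the other proteins.

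The third, chr22:50050532-50050814, stood at 28.0-fold and was the narrowest of the 10, at 283 bp. Next came chr2:25895611-25895956 at 23.9-fold, with TET1 and CTCF regions 7744 and 7674 bp away. The sixth, chr4:109571413-109571919, was at 23.1-fold and lay 29911 bp from a CTCF summit, the farthest of the 10. The others of this group without a near neighbour were chr5:96518860-96519434 at 20.8-fold, chr7:99716839-99717266 at 19.8-fold and chr20:39632091-39632478 at 16.2-fold. Their CTCF summits were 19924, 11739 and 12919 bp away.

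A pair of the 10 lay beside CTCF and TET1 without touching them. The fifth, chr17:21002264-21002857, at 23.6-fold with a −log10 q of 95.5, ended 183 bp from a CTCF region and 269 bp from a TET1 region. The ninth, chr12:56131934-56132390, at 17.2-fold, had a CTCF region 148 bp away and a TET1 region 275 bp away. Both would leave the class if regions within 1 kb counted as shared, and the other 8 of the 10 lay more than 7 kb from any region of the other proteins.

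Width went with fold mainly through these strong regions. The class had a median width of 180 bp (177 to 185), quartiles of 159 and 225 bp and a range of 144 to 814 bp. The 10 strongest had a median of 445.5 bp, between 283 and 594 bp, and the other 493 had a median of 179 bp. Over all 503 regions the Spearman correlation of fold and width was 0.096 and Pearson's r on log2 values was 0.34. Without the 10 strongest they were 0.042 and 0.12. For −log10 q and width the same correlations were 0.18 and 0.40 over all 503 regions. Without the 10 strongest they were 0.13 and 0.22, so more of that relation remained. The points come from 1 list and share its depth, so these values describe that list.

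TET2-only regions were narrower than TET2 regions at CTCF, and less clearly so than those with MBD3 or TET1. TET2 regions at CTCF had a median width of 202 bp (195 to 210) and those with MBD3 or TET1 one of 189.5 bp (184 to 205). The latter interval overlaps the 177 to 185 bp of the TET2-only class. Width bears on the rule itself, since a wider region is more likely to touch another, and no test of this difference was made. The smallest width was 144 bp in all 3 classes. Under 200 bp lay 311 of the 503, or 61.8% (57.5% to 66.0%), against 48.0% (43.5% to 52.5%) at CTCF. With MBD3 or TET1 this share was 52.9% (47.6% to 58.1%), whose interval overlaps that of the TET2-only class. Only 8 TET2-only regions, or 1.59% (0.808% to 3.11%), were joined from more than 1 row, against 22 of 475 at CTCF and 15 of 348 with MBD3 or TET1.

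The widest region, chr1:20960306-20961119, spanned 814 bp at 8.62-fold. It lay 285 bp from a TET1 region, 353 bp from an MBD3 region and 369 bp from another TET2 region. The second widest, chr4:189426659-189427430, spanned 772 bp at only 4.73-fold. The third was the region on chromosome 17 described above, at 594 bp. Wide regions thus included both strong and average ones.

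**Figure D2:**
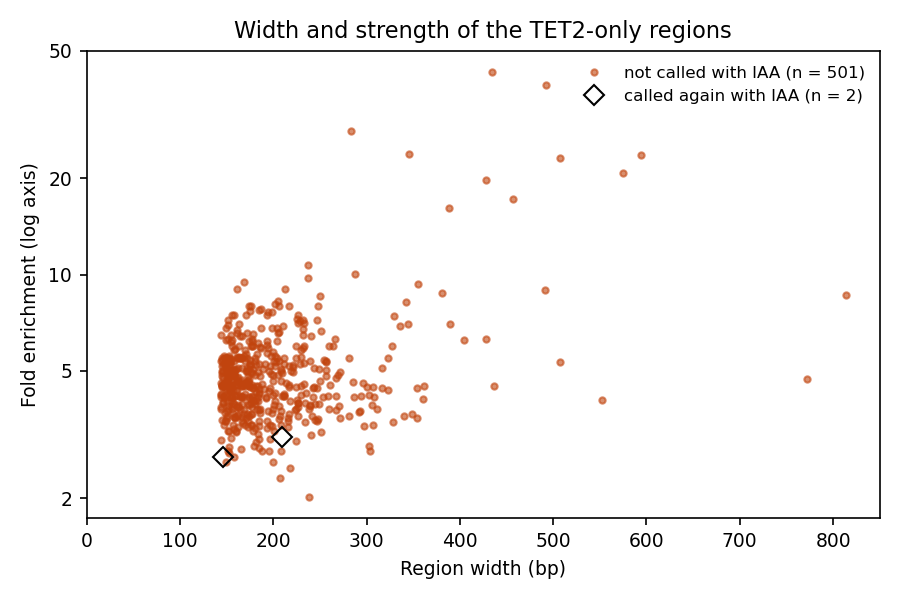
Fold enrichment (vertical, log axis) against width in bp (horizontal) for the 503 TET2-only regions, 1 point each, with open diamonds for the 2 that were called again with IAA. The 10 regions between 16.2- and 42.98-fold are 283 to 594 bp wide, most others crowd between 144 and 225 bp, and both diamonds sit near the bottom.

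Many folds took exactly the same value. The 503 regions had 331 distinct folds, and 238 regions shared theirs with another region of the class. The other classes were alike in this, with 224 of 475 at CTCF and 161 of 348 with MBD3 or TET1. The commonest, 5.49, occurred 16 times, always with a −log10 q of 3.57. In 62 regions, or 12.3% (9.74% to 15.5%), the fold was a whole multiple of 0.499, from 9 to 19 times that step, within 0.002 of a step. All regions on 1 multiple had the same −log10 q, from 1.95 at 9 steps to 12.3 at 19 steps. The lowest of these steps was at 4.49-fold, so no weaker fold lay on one. The share on these steps was 3.16% (1.92% to 5.14%) at CTCF and 19.0% (15.2% to 23.4%) with MBD3 or TET1.

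The weakest named members were chr10:42543639-42543876 at 2.02-fold, chr13:77901231-77901437 at 2.31-fold and chr1:17066857-17067074 at 2.49-fold. The first had a −log10 q of 4.49 in spite of its low fold, and an MBD3 region lay 2904 bp away. High confidence with a low fold was uncommon in the class: 3 regions had a −log10 q of at least 10 with a fold under 5, or 0.596% (0.203% to 1.74%). At CTCF there were 19 of 475 and with MBD3 or TET1 34 of 348, shares of 4.0% (2.58% to 6.16%) and 9.77% (7.08% to 13.3%). On chromosomes 1 to 22 and X these were 15 of 466, or 3.22% (1.96% to 5.24%), and 19 of 327, or 5.81% (3.75% to 8.90%).

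TET2-only regions were mostly solitary. Another member within 10 kb was found for 21 of the 503, or 4.17% (2.75% to 6.30%), and the median gap to the nearest member on the same chromosome was 1125822 bp. The 21 formed 9 groups, of which 8 were pairs. In 14 of the 21 the gap was at most 1 kb. Counting TET2 regions of any class, 46 of the 503 had one within 10 kb, or 9.15% (6.93% to 12.0%). This share was 9.26% (6.97% to 12.2%) at CTCF and 20.7% (16.8% to 25.3%) with MBD3 or TET1. The last value includes all 16 mitochondrial regions, and on chromosomes 1 to 22 and X it was 15.9% (12.3% to 20.3%).

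The 1 larger group lay near the end of the long arm of chromosome 4. It held 5 regions over 4530 bp, chr4:189424823-189429352, at 4.96-, 4.31-, 4.73-, 3.81- and 6.18-fold in order of position. All 5 were more than 42 kb from any region of another protein, and their CTCF summits were 45108 to 49505 bp away. They share 1 locus and are not independent sites. The pair of highest fold, chr17:63557188-63557372 and chr17:63557550-63557736, was separated by 177 bp and stood at 7.75- and 7.80-fold. Another pair, chr6:2022008-2022228 and chr6:2029007-2029150, was 6778 bp apart, at 5.23- and 6.48-fold.

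TET2-only regions were spread thinly along the chromosomes. Of the 1 Mb segments that held any member, 361 held 1 and 49 held 2. The fullest held 5, and these were the 5 on chromosome 4 just described. Over 5 Mb segments the most was 7, reached in 3 segments: 40 to 45 Mb and 150 to 155 Mb on chromosome 1 and 185 to 190 Mb on chromosome 4.

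TET2-only regions were found on each of chromosomes 1 to 22 and X, at uneven density. There were 1.65 per 10 Mb over these chromosomes, with the highest listed position taken as each length. Chromosome 1 held most, 58 regions or 11.5% (9.03% to 14.6%), followed by chromosome 4 with 41, chromosome 10 with 36, chromosome 6 with 33 and chromosome 9 with 30. By length, chromosome 19 was densest at 3.55 per 10 Mb, then chromosome 17 at 3.20 and chromosome 10 at 2.66. Chromosomes 20 and X were sparsest, at 0.636 and 0.644 per 10 Mb, with 4 and 10 regions. CTCF regions were also densest on chromosomes 19 and 17, at 294.0 and 243.9 per 10 Mb.

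On chromosomes 4 and 9 the class had larger shares than TET2 regions at CTCF, in a comparison chosen after the values were seen. Chromosome 4 held 8.15% (6.07% to 10.9%) of the TET2-only regions and 4.21% (2.74% to 6.41%) of those at CTCF. For chromosome 9 these shares were 5.96% (4.21% to 8.39%) and 2.74% (1.61% to 4.63%). The class with MBD3 or TET1 had 8.91% (6.35% to 12.4%) on chromosome 4 and 4.89% (3.07% to 7.68%) on chromosome 9, so larger shares than at CTCF were not limited to TET2-only regions. Chromosome 18 held 11 TET2-only regions, or 2.19% (1.23% to 3.87%), against 4 or 0.842% (0.328% to 2.14%) at CTCF. The intervals of the TET2-only and CTCF classes overlap on all 3 chromosomes, and 5 of the 41 regions on chromosome 4 are 1 group. Chromosome 17 went the other way, with 5.17% (3.55% to 7.47%) against 7.58% (5.52% to 10.3%).

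**Figure D3:**
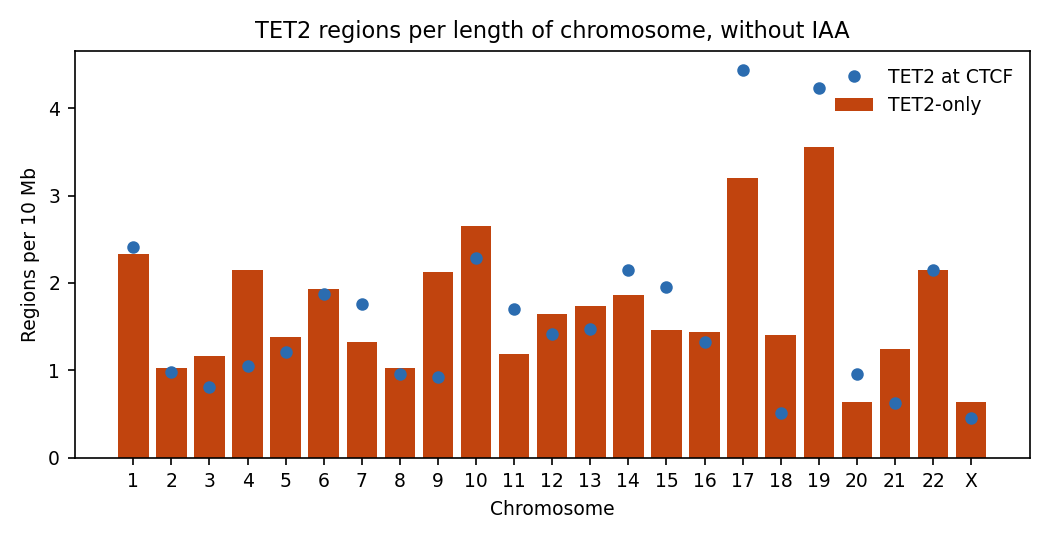
Number of TET2 regions per 10 Mb (vertical) on each chromosome (horizontal), with bars for TET2-only regions and points for TET2 regions at CTCF. The bars are highest on chromosomes 19 and 17, at 3.55 and 3.20, and stand well above the points on chromosomes 4 and 9.

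Just 1 member lay outside these chromosomes, on an unplaced scaffold. The class with MBD3 or TET1 had 21 such regions, 16 of them on mitochondrial DNA, and the class at CTCF had 9. The classes had like shares near the ends of chromosomes. Within 5 Mb of an end lay 44 of 502 TET2-only summits, or 8.76% (6.59% to 11.6%), against 8.37% (6.18% to 11.2%) at CTCF and 8.87% (6.25% to 12.4%) with MBD3 or TET1.

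TET2-only regions lay at many distances from CTCF, from 142 bp to over 200 kb. The median distance from a TET2-only summit to the nearest CTCF summit was 12919 bp (10583 to 15355), with quartiles of 2999 and 31337 bp. Within 1 kb of a CTCF summit lay 67 of the 503, or 13.3% (10.6% to 16.6%), and within 10 kb 220, or 43.7% (39.5% to 48.1%). Beyond 50 kb there were 58. The lower end of this range is set by the rule, since a region that touched CTCF would not be a member.

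The nearest member to a CTCF summit was chr17:56769951-56770236, with 142 bp between the summits and a gap of 23 bp between the regions. Next were chr14:52120154-52120378 and chr6:42896728-42896886, at 237 bp and 249 bp. Their folds were 4.15, 7.26 and 3.57. Farthest were chrX:54070721-54070891 at 212198 bp, chr15:96668971-96669119 at 201601 bp and chr2:30733999-30734159 at 195974 bp, with folds of 5.65, 6.82 and 5.49. An MBD3 region lay 32373 bp from the one on chromosome 15, while the other 2 had no region of any other protein within 195 kb.

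The class lay nearer to CTCF than the other TET2 regions away from it. The 332 regions with MBD3 or TET1 that were on a sequence with a CTCF summit had a median distance of 17765 bp (15457 to 21231), and 6.93% (4.66% to 10.2%) of them were within 1 kb. The number of CTCF regions within 100 kb of the summit had a median of 4 for TET2-only regions (quartiles 3 and 6), 3 with MBD3 or TET1 and 5 at CTCF. The value at CTCF includes the CTCF region that places a TET2 region in that class, so it is raised by the rule. The value with MBD3 or TET1 covers all 348 regions, also those on a sequence without a CTCF summit, and 41 had none. A CTCF summit lay within 100 kb of 96.0% (93.9% to 97.4%) of TET2-only regions and of 307 of the 332, or 92.5% (89.1% to 94.8%). These intervals overlap.

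**Figure D4:**
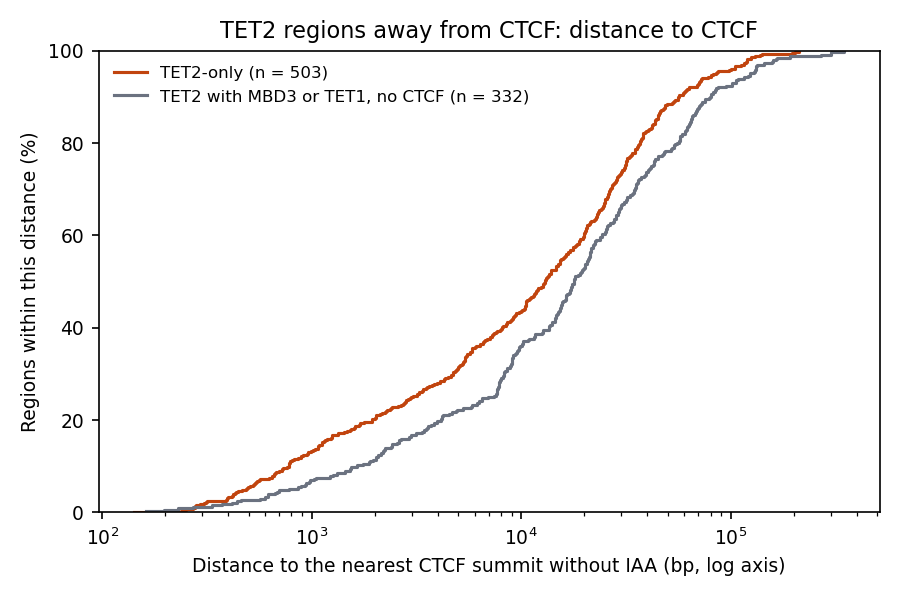
Share of regions (vertical, percent) whose nearest CTCF summit lies within a given distance (horizontal, bp, log axis), for TET2-only regions and for TET2 regions with MBD3 or TET1 but no CTCF. The TET2-only curve is the higher one at 1 kb, at 13.3% against 6.93%, and at 10 kb, at 43.7% (39.5% to 48.1%) against 36.1% (31.2% to 41.4%). The intervals at 10 kb overlap.

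Strength and distance from CTCF were nearly unrelated in rank. The Spearman correlation of fold and distance over the 503 regions was 0.021, a description of 1 list. Median fold was 4.43 (4.15 to 4.63) within 1 kb, 4.65 (4.46 to 5.04) from 1 to 10 kb, 4.54 (4.43 to 4.76) from 10 to 50 kb and 4.79 (4.48 to 5.41) beyond, and neighbouring intervals overlap throughout. The highest folds in these bands were 23.6, 23.9, 42.98 and 9.48.

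The CTCF regions within 5 kb of members had lower folds than the CTCF list as a whole. The rule bears on this, since a CTCF region that touched the TET2 region could not be such a neighbour, and its effect was not tested. Within 1 kb, 67 different CTCF regions had a TET2-only summit as neighbour, and their median fold in the CTCF list was 5.25 (4.43 to 6.67). The median of all CTCF regions was 13.6 (13.5 to 13.7). For the 157 within 5 kb the median was 7.82 (6.57 to 9.60). For the 485 that were nearest at any distance it was 11.6 (9.60 to 13.6), an interval that reaches the median of the whole list. TET1 was called at 31.3% (21.5% to 43.2%) of the 67 and at 34.4% of all CTCF regions, and MBD3 at 13.4% (7.23% to 23.6%) against 8.67%. Over the 485 the shares were 39.8% (35.5% to 44.2%) for TET1 and 13.2% (10.5% to 16.5%) for MBD3, both above those of the whole CTCF list.

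Few members came within 100 bp of failing the rule, but more did at a wider limit. A CTCF region lay within 1000 bp of 82 of the 503, or 16.3% (13.3% to 19.8%). Counting regions of any of the 3 other proteins within 1000 bp as shared left 398 members. Of the 503, 21 were within 100 bp of a region of another protein. The closest, chr9:84011559-84011710, abutted an MBD3 region with no base in between, chr12:31902226-31902392 was 4 bp from an MBD3 region and chr12:49582793-49582948 was 8 bp from a TET1 region. They stood at 6.96-, 4.67- and 4.15-fold. Just outside the class were chr11:64684508-64684706, which shared 1 bp with CTCF, chr4:170948497-170948807, which shared 6 bp with MBD3, and chr6:35995502-35995656, which shared 7 bp with CTCF. Their folds were 5.48, 5.77 and 4.82.

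With IAA, nearly all TET2-only regions went uncalled. In the TET2 list with IAA, 2 of the 503 were called again, or 0.398% (0.109% to 1.44%), and the share over all TET2 regions was 0.452%. The member count is thus near the background. In the other classes 1 of 475 and 3 of 348 were called again. The same 2 regions made up 0.0662% of the 3022 TET2 regions with IAA. This list was longer than the one without IAA. Whether enrichment at a region fell, or the reads were spread differently, cannot be told apart from peak lists.

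The region chr1:236260429-236260637 was called again with almost the same summit, 1 bp away. Without IAA its fold was 3.09, 479 of 503 in order of fold, and its −log10 q was 50.6, 9 of 503 in order of that value. With IAA it was 150 bp wide, at 3.07-fold with a −log10 q of 9.78. The second, chr17:17109783-17109928, was 497 in order of fold, at 2.68, and 375 in order of −log10 q. With IAA it was called at 5.13-fold and a −log10 q of 3.32, with the summit 25 bp away and 93 bp shared. Folds of different lists are each on their own scale and are not compared.

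None of the 10 strongest regions was called again, a count of 0 of 10 that allows a share of up to 30.0%. Over all TET2 regions the share called again was 0.452%, so this count is near the background. Their nearest TET2 regions with IAA were 24859 to 1078851 bp away, with a median of 186840 bp. For chr2:44588911-44589344 this gap was 219587 bp, and for chr1:228674573-228675064 it was 71675 bp. Both regions that were called again were among the weakest members by fold, but 2 regions are too few to relate strength to fate.

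None of the 503 shared a base with a region of another protein with IAA. A count of 0 of 503 allows a share of up to 0.596%. Over all TET2 regions the shares were 0.679% for CTCF, 0.98% for MBD3 and 1.28% for TET1 with IAA, and every such TET2 region was in another class. The rule bears on this contrast, since a member shares no base with these proteins without IAA, and its effect was not tested. The lists with IAA for CTCF and MBD3 held only 63 and 50 regions, so few matches were possible. The nearest TET1 region with IAA lay 969 bp from chr6:109415514-109415671, a member at 4.92-fold, and was the only one within 10 kb of a member.

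Few TET2-only regions had a TET2 region with IAA nearby. Within 10 kb of a TET2 region with IAA were 5 of the 503, or 0.994% (0.425% to 2.31%), the 2 that were called again among them. The other 3 were chr15:67224292-67224464, chr12:68221875-68222155 and chr2:114384621-114384923, with gaps of 441, 9023 and 9997 bp. In the class at CTCF the share within 10 kb was 3.79% (2.41% to 5.91%), and with MBD3 or TET1 it was 8.33% (5.86% to 11.7%), which includes all 16 mitochondrial regions. On chromosomes 1 to 22 and X the shares were 0.996% (0.426% to 2.31%) for the TET2-only class, 3.86% (2.46% to 6.02%) at CTCF and 3.98% (2.34% to 6.68%) with MBD3 or TET1. The median gap, over the 502 members on a chromosome with a TET2 region with IAA, was 462830 bp (386414 to 550330), against 427934 bp at CTCF and 463781 bp with MBD3 or TET1. At the scale of 100 kb the classes were alike in value, at 17.3% (14.2% to 20.8%), 18.3% (15.1% to 22.04%) and 20.4% (16.5% to 24.9%) in the same order.

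**Figure D5:**
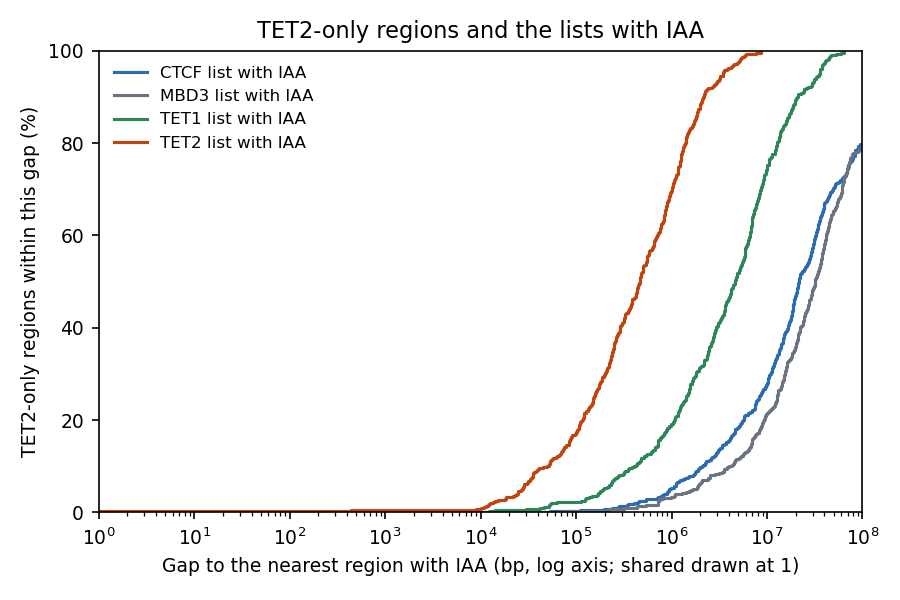
Share of the 503 TET2-only regions (vertical, percent) with a region of each list with IAA within a given gap (horizontal, bp, log axis, shared regions drawn at 1). All curves stay under 1% up to 10 kb, and the TET2 curve then reaches 17.3% at 100 kb. The lists hold 3022 regions for TET2, 325 for TET1, 63 for CTCF and 50 for MBD3.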

How the data were processed

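Chromatin immunoprecipitation sequencing gave 8 deposited peak lists, 1 for each of 4 antibodies with and without IAA; the 30 samples fall into 10 groups of 3, inputs included. The peak names in the deposited lists show that the authors pooled all 3 samples per list and compared them with a control, which the sources used here do not identify. Per the submitters' processing notes, which give no roles, the tools were MACS2 2.1.2, Bowtie2 2.3.4, bedtools 2.25.0, FastQC 0.11.7 and SAMtools 1.9, and the build was hg19. Fold enrichment is a ratio deposited by the authors, and so is the −log10 of the q-value. Read depth is unknown, so no precision per region can be given.

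Rows sharing at least 1 bp were joined; a region took the largest fold and −log10 q among its rows, and its summit from the row of largest −log10 q. Gaps count the bases between regions. Shares carry Wilson 95% intervals, medians binomial order-statistic 95% intervals, and a count of 0 a limit of 3 counts. No statistical test was made, since each list pools its group. Joining, sharing and distances were tested on simulated lists. The members, comparison classes and rules were chosen with earlier results of these data known. Named regions are the extremes, on chromosomes 1 to 22 and X, of fold, −log10 q, width, gap to another protein, distance to CTCF and group size, and those called with IAA; regions near a call with IAA were added after their values were seen. Alternatives changed the filter, the joining, the sharing rule and the distance limits. Shares over chromosomes 1 to 22 and X alone were added after the data were seen. Sequence features and gene positions need an hg19 genome and were not analysed here. Python 3.11.15, numpy 2.4.6, pandas 2.3.3, scipy 1.17.1 and matplotlib 3.10.9 were used.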

Additional observations from a re-analysis of the deposited data

How the results depend on the processing

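Of 68 alternative values, 45 stayed within the interval of the reported value (counts within 1.5 times) and 23 did not. Filters were applied to all 4 lists without IAA, so a TET2 region whose partner was filtered out became TET2-only. The TET2 list with IAA was filtered as well. With a −log10 q of at least 5 there were 222 TET2-only regions, with a median fold of 6.28, −log10 q of 7.31, width of 202 bp and CTCF distance of 15554 bp. With at least 10 there were 73, with medians of 8.28, 14.1, 240 bp and 17752 bp; chromosome 17 then held most, at 17.8%, and 0% were called again with IAA. With a fold of at least 5 there were 277, with medians of 5.88, 6.19, 196 bp and 17304 bp, and again 0% were called with IAA. This too follows from the filter, since the regions called again stood at 3.09- and 2.68-fold and were removed. The median CTCF distance was 7891 bp when sharing needed 50% of both regions (707 members), 10416 bp when it needed summits within 200 bp (569 members) and 18741 bp when regions within 1000 bp counted as shared (398 members). Another member lay within 50 kb of 6.96% of members, and any TET2 region lay within 10 kb of 9.15%. No paired analysis was possible because each list pools the 3 samples of a group, and for the same reason no sample could be left out. The spread between cultures and the depth of the lists are unknown.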
